A study of Homo sapiens with 22 samples.

Results

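The replication-dependent histone genes supply the linker histone H1 and the core histones H2A, H2B, H3 and H4 for newly made DNA. The members were the rows of the count table with an older histone symbol of the HIST1 to HIST4 clusters and of class H1, H2A, H2B, H3 or H4, without symbols that mark a pseudogene. This rule used the symbol alone and no measured value. It gave 75 of the 35237 rows, of which 6 were H1, 17 H2A, 23 H2B, 14 H3 and 15 H4 genes. The HIST1 cluster on chromosome 6 held 55 of them, the HIST2 and HIST3 clusters on chromosome 1 held 15 and 4, and HIST4H4 lies alone on chromosome 12. GENCODE release 29 lists 70 of the members as protein coding and the other 5 as pseudogenes.

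The libraries come from a pair of established human cell lines, SK-N-AS and GIMEN, both given in the labels as mesenchymal (MES) neuroblastoma lines. Neuroblastoma arises from cells of the developing sympathetic nervous system. PP121 blocks tyrosine kinases as well as PI3-kinase family members, and bufalin is a cardiac glycoside that blocks the sodium pump. SK-N-AS cells were left untreated in DMEM with 10% fetal bovine serum (n = 4), or kept for 4 days in 5 µM PP121 and 1% serum (S1D4, n = 4). S1D4 cells were then moved to Neurobasal medium with B27 supplement, 5 µM PP121 and 100 nM bufalin. They were taken after 4 days there, named S2D4 (n = 4), or after 30 days, named S2D30 (n = 4). For GIMEN the untreated group grew in RPMI with 10% serum (n = 3). The GIMEN D30 group (n = 3) spent 30 days with 1% serum, PP121 at 2.5 µM and bufalin at 10 nM. In each comparison with untreated cells drug, serum and, for stage 2, medium changed together and cannot be told apart. From S1D4 to S2D4 the PP121 dose stayed the same, while bufalin and the medium changed together. S2D4 and S2D30 had the same labelled drugs, doses and medium and differed in time. Between the lines the doses differed too. The labels do not say that replicates were separate cultures, so p-values measure the spread between these libraries, which may be technical.

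As background, cells make most of their core and linker histone mRNA in S phase. These mRNAs lack introns and usually end in a short stem-loop instead of a poly(A) tail. The stem-loop is bound by SLBP, NPAT drives transcription of the clustered genes, and the mRNAs are degraded when DNA synthesis stops. A few members, among them HIST1H2BD, HIST1H2BK, HIST1H2AC and HIST2H2BE, are known to make polyadenylated transcripts as well, which are described in cells that have stopped dividing. Whether the libraries were prepared by poly(A) selection is not given in the sources used here, and a level below is the level of whatever share of the transcripts the preparation captured.

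The libraries held 16456484 to 37506800 counts, of which the 75 members took between 0.0083% and 0.0666%. Levels are given as CPM (counts scaled to a library of fixed size) after 1 scaling of all 22 libraries and are not corrected for transcript length. Of the 75 members, 6 had no count in any library, 11 had at most 3 counts in each, and 11 averaged at least 10 CPM. The 42 members that passed the filter on low counts in SK-N-AS, and 30 in GIMEN, were tested. The 4 genes of a list known mainly from testis (HIST1H1T, HIST1H2AA, HIST1H2BA and HIST3H3) together stayed between 0 and 0.172 CPM. Against the labelled mesenchymal state, 8 adrenergic markers summed to 1513 to 1766 CPM and 8 mesenchymal markers to 839 to 1519 CPM in untreated SK-N-AS. In untreated GIMEN they summed to 407 to 419 and 7214 to 7639 CPM. Of 8 leukocyte markers, PTPRC stood at 179 ± 17.8 CPM (SD, n = 4) in untreated SK-N-AS and 0.832 ± 0.351 CPM (SD, n = 4) in S2D30, while CD3E and MS4A1 had no counts in any SK-N-AS library; the summed list held 174 to 212 and 98.3 to 148 CPM in these groups. In GIMEN that list held 89.5 to 103 CPM untreated and 175 to 410 CPM at D30, and its part in the results was not tested.

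The S2D4 library of replicate 4 stood apart from the other 3 of its group. It was the highest of the 4 for 33 of the 42 tested members, at a median of 2.37 times the mean of the others. It also had more S-phase RNA, with 1398 CPM summed over a list of 16 S-phase genes against 946 to 994 CPM in the other 3, and less of the 8 mesenchymal markers, with 2502 against 4449 to 4759 CPM. The counts and members that rest on S2D4 are therefore given with and without this library. It was singled out by these same histone values, so calls and p-values without it are descriptive and are not separate evidence. Counts of members enter each row once, near-identical copies included.

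The stem-loop sequence is shown for the members that the results turn on, because it is the shared 3′ feature of the family and because the annotated transcripts differ in what lies beyond it. The transcripts of GENCODE release 29 were searched on their own strand for the histone stem-loop consensus, in which some positions of the arms and the loop are fixed and the others open. The motif was found in transcripts of 161 of 58721 annotated genes (0.274%), among them 35 of the 75 members. Capitals mark the motif in these windows, written 5′ to 3′ as DNA.
HIST3H2A: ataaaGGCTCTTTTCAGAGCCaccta
HIST2H2BE: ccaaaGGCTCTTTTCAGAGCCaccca
HIST1H2AC: ccaaaGGCTCTTTTCAGAGCCcccct
HIST1H2BD: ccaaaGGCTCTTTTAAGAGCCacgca
HIST1H3E: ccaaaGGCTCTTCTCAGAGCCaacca
HIST1H4I: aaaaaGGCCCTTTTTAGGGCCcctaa
HIST2H4A: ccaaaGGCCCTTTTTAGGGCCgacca
HIST4H4: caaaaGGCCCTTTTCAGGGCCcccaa
HIST3H2A, HIST2H2BE and HIST1H2AC carry the same stem-loop letters and differ only in the flanks. The H4 genes carry a different pair of arms from the H2A and H2B genes. The longest annotated stretch beyond the match was 390 bases in HIST3H2A, 1729 in HIST2H2BE, 1128 in HIST1H2AC, 1862 in HIST1H3E, 212 in HIST1H4I and 1510 in HIST4H4, but 39 in HIST1H2BD. No match was found in the annotated transcripts of HIST1H1C, HIST1H2BK and HIST2H2AC, whose models of 642, 381 and 390 bases hold little beyond the coding part.

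Summed over a class, histone RNA in SK-N-AS was lower in S1D4 than in untreated cells for 4 of the 5 classes, with no overlap between libraries, and in S2D30 it overlapped or lay above the untreated range for each class. The H1 sum was 51.6 to 108 CPM in the 4 untreated libraries and 7.91 to 16.9 CPM in S1D4, so the groups were far apart. It was 7.74 to 9.41 CPM in S2D4 replicates 1 to 3, 32.9 CPM in replicate 4, and 46.8 to 53 CPM in S2D30, where it overlapped the untreated range. The H4 sum followed the same course, from 64.1 to 103 CPM in untreated cells through 40.8 to 45.7 CPM in S1D4 and 21.7 to 22.5 CPM in S2D4 replicates 1 to 3 (49.7 CPM in replicate 4) to 84.3 to 88 CPM in S2D30. The H2B sum went from 111 to 192 CPM down to 72.3 to 91.7 CPM and then 33.8 to 37.5 CPM (76.7 CPM in replicate 4), and returned to 138 to 154 CPM.

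The H2A and H3 sums departed from that course. The H2A sum was 68.2 to 120 CPM in untreated cells, 64.9 to 66 CPM in S1D4 and 70.5 to 100 CPM in S2D4, and then lay above every other library at 313 to 342 CPM in S2D30. The H3 sum was 27.5 to 34.1 CPM in untreated cells and 26.1 to 34.1 CPM in S1D4, which overlap, and was lowest in S2D4, at 10.2 to 10.4 CPM in replicates 1 to 3 against 26.7 CPM in replicate 4. Both HIST2H3A and HIST2H3C are in the H3 sum and in the sum of all members. Their counts were equal in all 22 libraries, so 1 measurement enters these sums 2 times. Its log2 fold change in S1D4 was 0.53 (SE 0.31, edgeR adjusted p = 0.19). In GIMEN the H2A, H2B, H3 and H4 sums were higher in each of the 3 treated libraries than in each untreated one, for example 62.2 to 79.7 against 35.5 to 36.5 CPM for H2A, while the H1 sum was lower, with 6.62 to 8.5 against 9.09 to 10.3 CPM. No test was made on these sums.

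**Figure D1:**
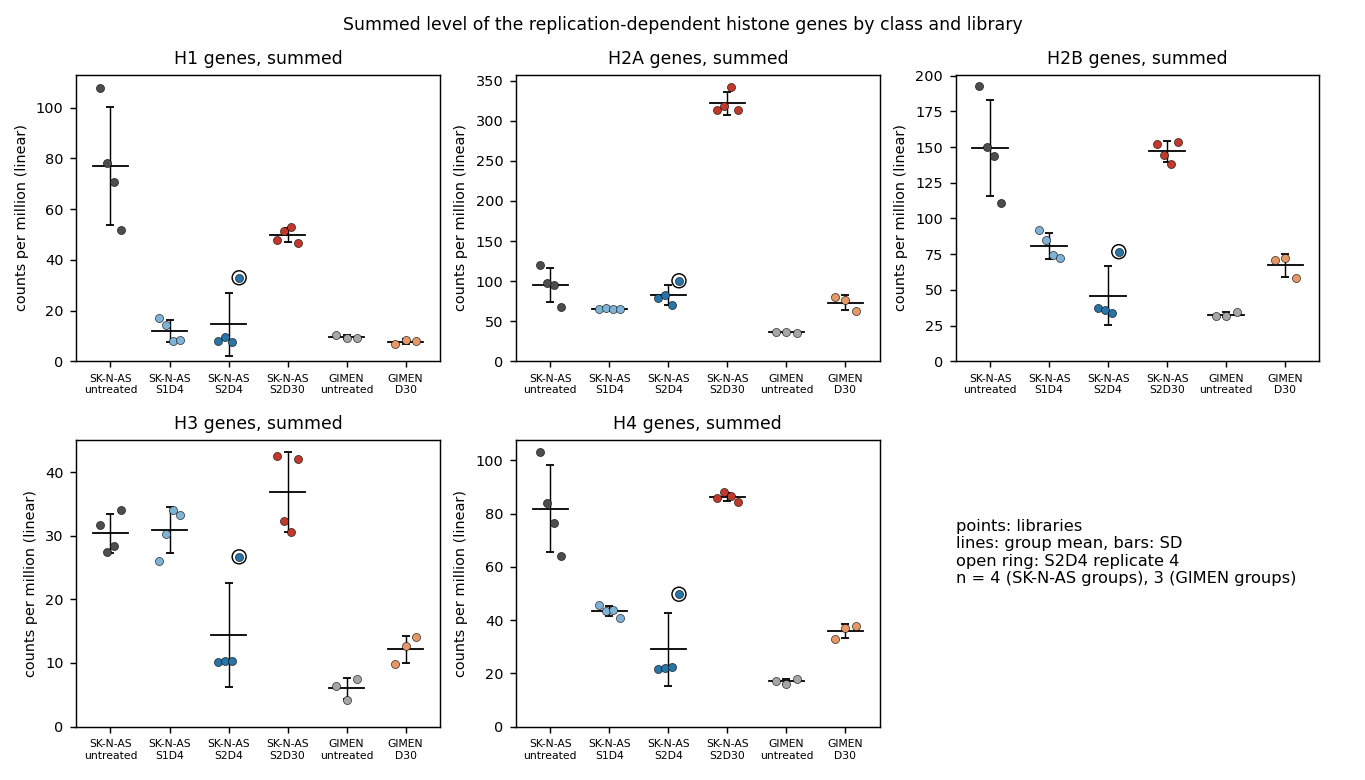
Summed CPM of the H1, H2A, H2B, H3 and H4 genes in each of the 22 libraries (linear axes from 0; points are libraries, lines group means, bars SD; n = 4 per SK-N-AS group and 3 per GIMEN group; ring, S2D4 replicate 4). The 4 S2D30 libraries sit at 313 to 342 CPM for H2A, above every other library, whereas for H1 and H2B they overlap the untreated SK-N-AS libraries. The H3 sum holds the equal rows HIST2H3A and HIST2H3C both.

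A gene is called here when its adjusted p-value (edgeR quasi-likelihood test, Benjamini-Hochberg over all genes tested) was under 0.05. In S1D4 against untreated cells, 23 of the 42 tested members were called lower and 0 higher, with a median log2 fold change of -1.03. Of all 15810 genes tested, 40.1% were called in that comparison, 22.4% lower and 17.6% higher, with a median of -0.01. At an unadjusted p under 0.05, 27 members were lower and 0 higher, and DESeq2 called 26 lower and 0 higher of 62; leaving out untreated replicate 4 gave 2 higher. By cluster, 20 of the 27 tested HIST1 members fell against 3 of the 12 tested HIST2 members, a contrast that was not tested.

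In S2D4 against untreated cells, 29 of the 42 members were called lower and 2 higher (median log2 fold change -1.50), where 63.1% of all genes were called, 32.2% lower and 30.9% higher. Without S2D4 replicate 4, 34 of 43 were lower and 1 higher, against 34.3% and 31.2% of all genes. Of the 23 members that fell in S1D4, 21 also fell here; both comparisons share the untreated libraries. Between the stages, S2D4 against S1D4, 15 members were lower and 3 higher, against 26.8% and 28.3% of all genes (55.1% in either direction). This count was unstable: without S2D4 replicate 4 it was 28 lower of 43, against 29.3% of all genes. Without S1D4 replicate 2 or S2D4 replicate 1, 2 or 3 it was 9 lower.

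From day 4 to day 30 of stage 2 the direction turned. In S2D30 against S2D4, 29 of the 42 members were called higher and 0 lower (median log2 fold change 1.64), where 51.3% of all genes were called, 24.4% higher and 26.9% lower. At an unadjusted p under 0.05, 31 were higher and 1 lower, and DESeq2 called 30 higher and 1 lower of 63. Without S2D4 replicate 4, 35 were higher and 1 lower of 43, against 26.5% and 27.2% of all genes. Leaving out S2D4 replicate 2 or 3 or S2D30 replicate 1 also gave 1 lower. The S2D4 group mean was the lowest of the 4 SK-N-AS groups for 28 of the 42 members, and the S2D30 mean was the highest for 23. Among members averaging at least 1 CPM and without HIST2H2AA3, the largest called rises were in HIST1H2AI and HIST1H2AE. Their log2 fold changes against S2D4 were 3.24 and 2.88, and 4.29 and 3 without S2D4 replicate 4.

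Against untreated cells, the S2D30 members split. Of the 42 tested, 13 were called higher and 8 lower (median log2 fold change 0.16), next to 70.3% of all genes called, 33.8% higher and 36.5% lower. The 13 that rose were 5 H2A, 4 H2B, 2 H3 and 2 H4 genes. The 8 that fell were 2 H2A, 3 H2B, 2 H3 and 1 H4 genes. The filter on low counts matters for this split. With no filter, 69 members were tested, of which 13 were called higher and 18 lower, and DESeq2 called 14 higher and 16 lower of 64. Falls then outnumbered rises, as they did over all genes in the filtered fit. The shares over all genes were not computed for these alternatives.

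**Figure D2:**
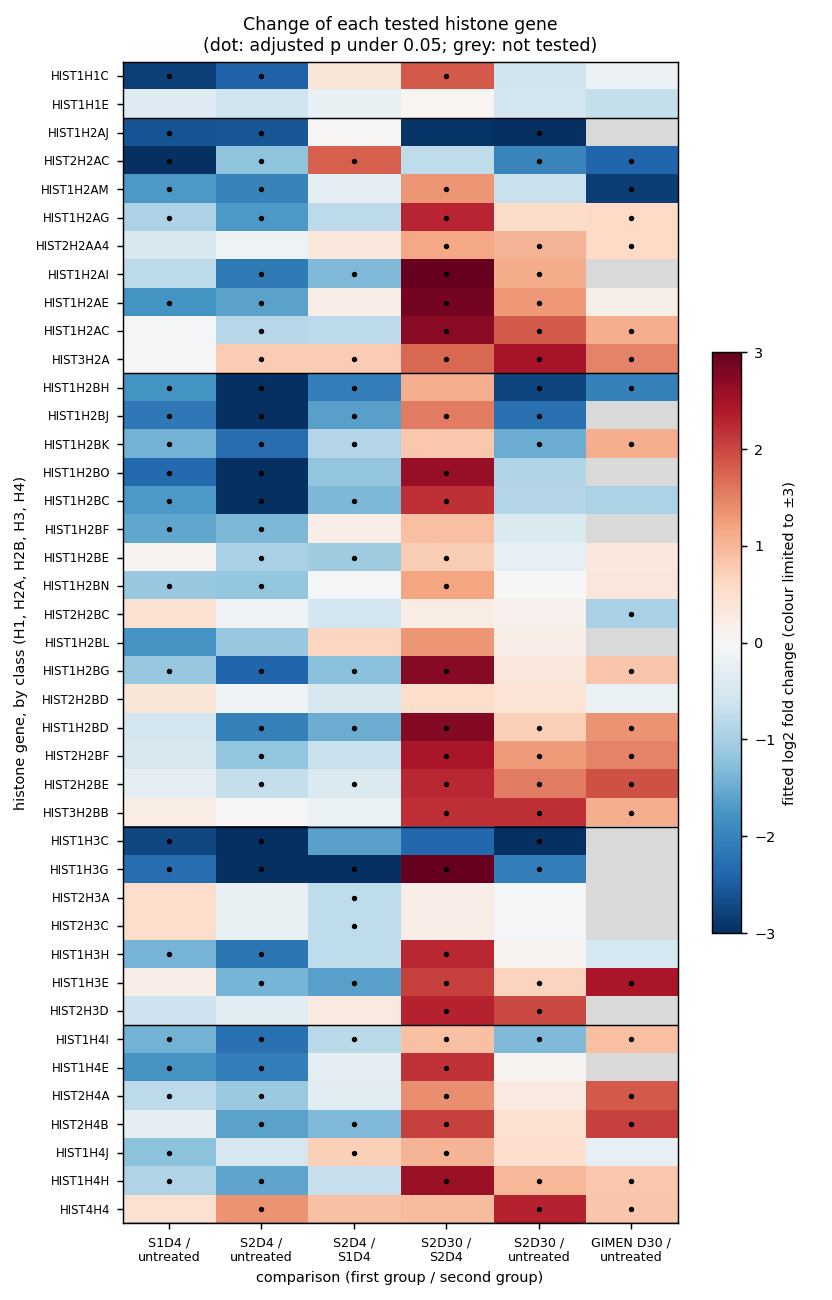
Fitted log2 fold change of each member tested in SK-N-AS (41 of 42, by class; HIST2H2AA3 is left out because its libraries at 0 make its own fold uninterpretable) in 6 comparisons, with a dot where the adjusted p was under 0.05 and grey where a member was not tested in GIMEN; colour is limited at ±3. The S1D4 and S2D4 columns against untreated cells are mostly negative, the S2D30 against S2D4 column is mostly positive, and the S2D30 against untreated column holds 13 called rises and 8 called falls over the 42 members.

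HIST1H1C encodes a somatic linker histone that binds the nucleosome where DNA enters and leaves, and it made up nearly all of the H1 sum. Its untreated libraries stood at 106, 76.5, 69.2 and 50.2 CPM, and the S1D4 libraries at 16.1, 13.1, 6.73 and 6.97 CPM. Those groups did not overlap, and HIST1H1C fell by 2.80 on the log2 scale (SE 0.42, n = 4 and 4, edgeR adjusted p = 7.22e-05). In S2D4 the libraries stood at 7.49, 8.87 and 7.37 CPM, with 31.4 CPM in replicate 4, a log2 change of -2.43 (SE 0.41, edgeR adjusted p = 7.91e-05) against untreated cells that was -3.26 without replicate 4.

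By S2D30 the HIST1H1C libraries stood at 47.2, 50.65, 52.25 and 45.6 CPM and overlapped the untreated range at its lower end. The log2 fold change against untreated cells was -0.60 (SE 0.39, edgeR adjusted p = 0.177; 0.00989 in a model of these 2 groups alone), and against S2D4 it was 1.83 (SE 0.41, edgeR adjusted p = 0.00132; 2.65 without S2D4 replicate 4). HIST1H1E, the other tested linker gene, stayed between 0.28 and 1.4 CPM in SK-N-AS and, with all libraries, passed no test in the 6 treatment comparisons. S2D4 replicate 4 stood at 1.38 CPM and was left out after such high values were seen. Without it, HIST1H1E was called lower in S2D4 than in untreated cells (log2 fold change -1.40, SE 0.34, edgeR adjusted p = 0.00162). It was then also lower in S2D4 than in S1D4 (-1.01, edgeR adjusted p = 0.019) and higher in S2D30 than in S2D4 (0.85, edgeR adjusted p = 0.049).

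Among the H2A genes, HIST3H2A went against the family trend. It stood at 32.5, 25.4, 26.9 and 17.8 CPM in untreated cells and at 24.6, 25.0, 25.9 and 25.5 CPM in S1D4, where it did not pass the test. It was higher in each S2D4 library, at 44.6, 49.8, 41.1 and 37.3 CPM, and higher again in S2D30, at 135.2, 135.8, 153.9 and 135.6 CPM. None of these 3 groups of values overlap, and HIST3H2A rose by a log2 change of 0.75 (SE 0.13, edgeR adjusted p = 8.83e-05; 0.81 without replicate 4) in S2D4 and 2.47 (SE 0.13, edgeR adjusted p = 7.64e-11) in S2D30. It is 1 of only 2 members called higher in S2D4, the other being HIST4H4.

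HIST1H2AC encodes a canonical H2A protein. Its level was 19.2, 15.7, 18.8 and 12.1 CPM in untreated cells, 15.3, 16.6, 15 and 15.6 CPM in S1D4, and 6.33, 4.68 and 4.52 CPM in S2D4 replicates 1 to 3 with 20.1 CPM in replicate 4. The S2D4 fall, -0.85 on the log2 scale (SE 0.34, edgeR adjusted p = 0.0395), was lost when any of untreated replicates 1 to 3 or S2D4 replicates 1 to 3 was left out (adjusted p 0.0621 to 0.117), and without replicate 4 it was -1.66 (edgeR adjusted p = 6.95e-08). In S2D30 the 4 libraries stood at 58.8, 53.5, 57.3 and 64.9 CPM, above every untreated library, a log2 change of 1.85 (SE 0.34, edgeR adjusted p = 0.00013).

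HIST2H2AA3 and HIST2H2AA4 are near-identical copies: 100% and 96.4% of their transcripts' 150-base words occur in the other. Their counts could be split arbitrarily, since HIST2H2AA3 had no counts in any S1D4 or untreated GIMEN library while HIST2H2AA4 had, so only their sum is given. The sum was 52.9, 41.4, 37.1 and 28.7 CPM in untreated cells, 21.3, 20.0, 19.6 and 20.5 CPM in S1D4, 24.6, 25.0, 21.6 and 37.6 CPM in S2D4, and 104, 114.5, 117 and 97.3 CPM in S2D30. It was lower in S1D4 without overlap (log2 fold change -0.97, SE 0.17, edgeR adjusted p = 0.000233) and higher in S2D30 without overlap (1.45, SE 0.17, edgeR adjusted p = 6.62e-07).

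HIST2H2AC, a further H2A gene, behaved unlike these. It stood at 2.72, 2.38, 2.04 and 1.32 CPM in untreated cells and at 0.474, 0.549, 0.531 and 0.556 CPM in S2D30, a fall of 1.98 on the log2 scale (SE 0.42, edgeR adjusted p = 0.00051). Its lowest level was in S1D4, between 0.0421 and 0.44 CPM, where it fell by 3.0 (SE 0.46, edgeR adjusted p = 7.82e-05). In S2D4 against S1D4 it was 1 of the 3 members called higher, with a log2 change of 1.79 (SE 0.47, edgeR adjusted p = 0.00426, and 2.05 without S2D4 replicate 4). HIST1H4J, an H4 gene, was another, with a log2 change of 0.72. Its call was lost without S1D4 replicate 1 or S2D4 replicate 4.

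HIST1H2BK, a canonical H2B gene, had the highest CPM of the H2B genes in untreated SK-N-AS and was still lower at day 30. Its untreated libraries stood at 109, 82.2, 70.6 and 44.1 CPM and its S1D4 libraries at 38.0, 31.1, 23.6 and 21.8 CPM. In S2D4 it stood at 9.94, 10.4 and 9.32 CPM, with 31.9 CPM in replicate 4, and in S2D30 at 28.3, 27.1, 24.0 and 28.3 CPM. All 4 S2D30 libraries lay below all 4 untreated ones, and the fall was 1.48 on the log2 scale (SE 0.34, edgeR adjusted p = 0.00101). From S2D4 to S2D30 its log2 fold change was 0.81 (SE 0.35, edgeR adjusted p = 0.0613), which became 1.46 (edgeR adjusted p = 8.48e-05) without S2D4 replicate 4.

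HIST2H2BE and HIST1H2BD ended above the untreated level instead. HIST2H2BE stood at 20.2, 16.4, 16.4 and 12.9 CPM in untreated cells, between 13.0 and 14.3 CPM in S1D4, at 11.7, 10.9, 8.48 and 9.26 CPM in S2D4 and at 46.1, 50.2, 48.5 and 46.6 CPM in S2D30. S2D4 replicate 4 did not stand apart for this gene. HIST2H2BE fell by 0.71 on the log2 scale in S2D4 (SE 0.12, edgeR adjusted p = 8.49e-05; -0.67 without replicate 4) and rose by a log2 change of 1.56 in S2D30 (SE 0.12, edgeR adjusted p = 5.61e-09).

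HIST1H2BD stood at 21.1, 15.2, 20.0 and 15.7 CPM in untreated cells, 11.1 to 13.4 CPM in S1D4, 3.28, 3.15, 2.80 and 8.11 CPM in S2D4 and 33.7, 24.8, 25.8 and 33.1 CPM in S2D30. The S2D4 fall was 2.03 (SE 0.26, edgeR adjusted p = 4.3e-06; -2.55 without replicate 4) and the S2D30 rise was 0.72 (SE 0.24, edgeR adjusted p = 0.0143). HIST1H2BJ, in contrast, went from 7.68, 4.85, 5.54 and 3.78 CPM in untreated cells to 0.277, 0.0544, 0.233 and 0.865 CPM in S2D4, a fall of 3.79 (SE 0.46, edgeR adjusted p = 2.24e-06; -4.78 without replicate 4). It remained low in S2D30, at 0.898 to 1.34 CPM, 2.23 below untreated cells on the log2 scale (log2 fold change -2.23, SE 0.41, edgeR adjusted p = 0.000139).

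The list of 6 members known for polyadenylated transcripts in non-dividing cells (HIST1H1C, HIST1H2AC, HIST1H2BC, HIST1H2BD, HIST1H2BK and HIST2H2BE) did not move as a block. In S2D4 against untreated cells 6 of 6 were called lower, with and without replicate 4, and in S2D30 against untreated cells 3 were called higher (HIST1H2AC, HIST1H2BD and HIST2H2BE) and 1 lower (HIST1H2BK). Their median log2 fold change at S2D30 was 0.06, next to 0.16 over all tested members.

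**Figure D3:**
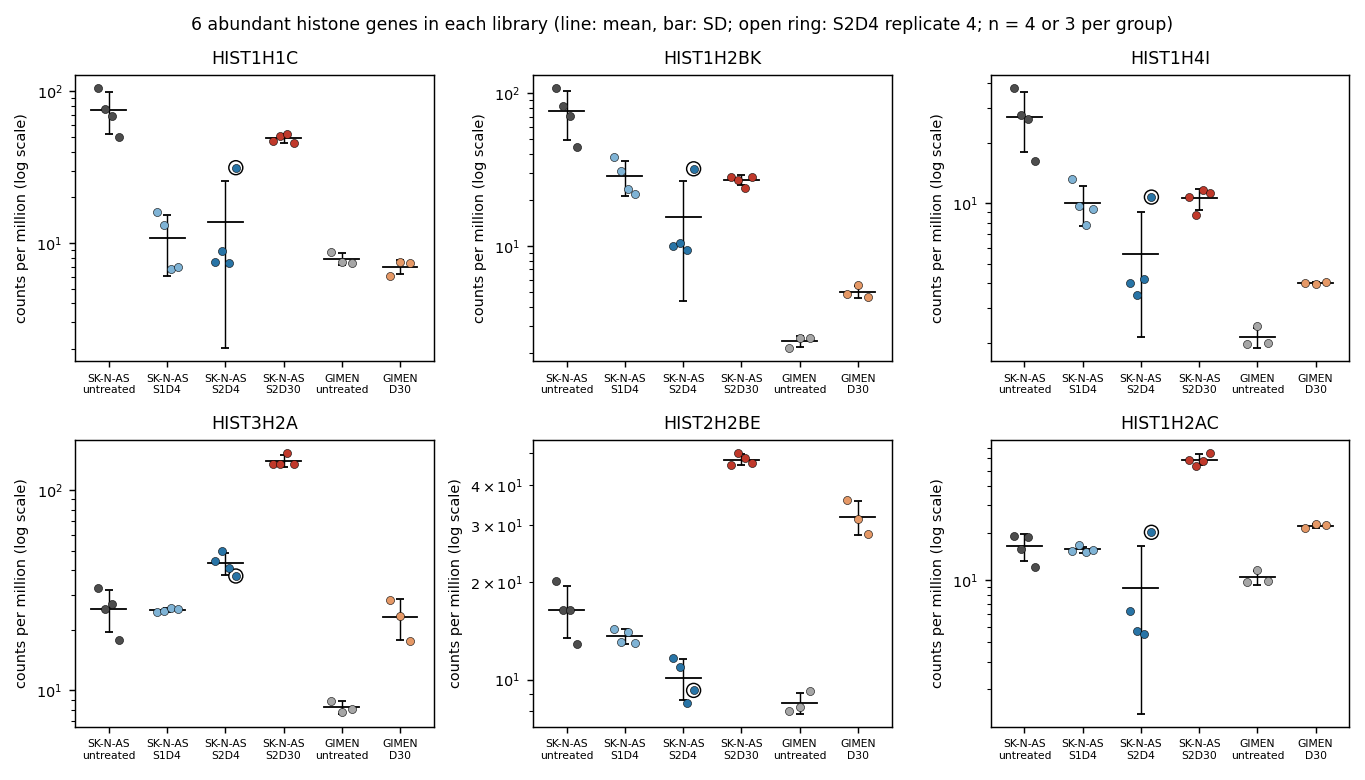
CPM of 6 members in each library (log axes; points are libraries, lines group means, bars SD; n = 4 per SK-N-AS group and 3 per GIMEN group; ring, S2D4 replicate 4). HIST1H1C, HIST1H2BK and HIST1H4I fall in S1D4 without overlap with untreated cells, while HIST3H2A, HIST2H2BE and HIST1H2AC reach their highest SK-N-AS levels in S2D30.

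HIST1H3E, a canonical H3 gene, fell in S2D4 and not in S1D4. It stood at 12.7, 11.3, 12.8 and 12.6 CPM in untreated cells, 13.1, 15, 14.4 and 14.6 CPM in S1D4, 2.91, 2.67, 3.50 and 9.23 CPM in S2D4, and 21.9, 17.0, 16.6 and 21.8 CPM in S2D30. All 4 S1D4 libraries lay above the untreated ones, but the log2 fold change of 0.21 did not pass the test (SE 0.27, edgeR adjusted p = 0.573). The S2D4 fall was 1.40 on the log2 scale (SE 0.28, edgeR adjusted p = 0.000415; -2.03 without replicate 4). The S2D30 libraries lay above all untreated ones, with a log2 change of 0.66 (SE 0.27, edgeR adjusted p = 0.0393), a call that was lost without any of the 4 untreated libraries or S2D30 replicate 1 or 4 (adjusted p 0.0526 to 0.0925).

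HIST2H3A and HIST2H3C, H3 copies in the HIST2 cluster, had equal counts in all 22 libraries, so they are 1 measurement entered in 2 rows. That measurement was 3.48, 3.51, 3.79 and 8.01 CPM in untreated cells and 5.30, 4.34, 3.54 and 5.22 CPM in S2D30, which overlap. Neither S1D4, S2D4 nor S2D30 passed the test against untreated cells. In S2D4 against S1D4 its log2 fold change was -0.76 (SE 0.31, edgeR adjusted p = 0.0487), which was lost without S1D4 replicate 2, 3 or 4 or S2D4 replicate 1, 2 or 3 (adjusted p 0.0645 to 0.127) and was -1.14 without S2D4 replicate 4.

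HIST1H4I, an H4 gene, followed HIST1H2BK. It stood at 37.8, 27.5, 26.3 and 16.2 CPM in untreated cells, 13.2, 9.69, 7.79 and 9.32 CPM in S1D4, 3.98, 3.48, 4.19 and 10.7 CPM in S2D4 and 10.8, 8.73, 11.6 and 11.2 CPM in S2D30. All 4 libraries of each treated group lay below all untreated ones. The fall was 1.42 on the log2 scale in S1D4 (SE 0.31, edgeR adjusted p = 0.0015), 2.24 in S2D4 (SE 0.32, edgeR adjusted p = 1.17e-05; -2.79 without replicate 4) and 1.33 in S2D30 (SE 0.31, edgeR adjusted p = 0.000972).

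HIST2H4A and HIST2H4B share 92.2% and 97% of their 150-base words and are given as a sum. The sum was 46.1, 37.2, 33.5 and 34.2 CPM in untreated cells, 25.4, 24.6, 26.9 and 23.2 CPM in S1D4, 11.8, 13.4, 12.0 and 24.9 CPM in S2D4 and 44.9, 51.6, 49.2 and 42.5 CPM in S2D30. It fell in S1D4 (log2 fold change -0.59, SE 0.19, edgeR adjusted p = 0.019) and in S2D4 (-1.28, SE 0.19, edgeR adjusted p = 1.96e-05). Without S2D4 replicate 4 the separate copies HIST2H4A and HIST2H4B gave -1.48 and -1.90. In S2D30 it overlapped the untreated range (0.34, SE 0.18, edgeR adjusted p = 0.115).

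HIST4H4, the H4 gene outside the clusters, was low in untreated cells, at 0.238, 0.52, 0.146 and 0.901 CPM, and higher in each S2D30 library, at 2.11, 2.89, 1.77 and 2.31 CPM. Its log2 fold change was 2.30 (SE 0.47, edgeR adjusted p = 0.000319; 2.94 without untreated replicate 4). In S2D4 it stood at 1.06, 0.979, 0.932 and 1.73 CPM, a log2 change of 1.35 (SE 0.47, edgeR adjusted p = 0.0196; 1.99 without untreated replicate 4) whose call was lost without untreated replicate 1 or 3 or S2D4 replicate 4 (adjusted p 0.0554 to 0.0648).

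Low members are missing from these counts. Of the 18 members called lower with no filter, 10 had not been tested in the filtered table, and none of the untested members was called higher there. HIST1H4A, which was chosen after its values were seen, reached at most 1 CPM in untreated cells and 0.0443 CPM in S2D30, and HIST1H3B, chosen likewise, at most 1.37 and 0.0862 CPM. In GIMEN, 6 of the 10 members called lower with no filter had been filtered out, among them HIST1H1B, which reached at most 0.748 CPM in untreated cells and had no counts in D30. Counts over the tested members therefore do not stand for all 75.

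The members were also grouped by their annotated transcript models, as a description with no test between the sets. In 25 members a model ran at least 100 bases past the stem-loop match, in 10 it ended within 100 bases of it, and in 40, mostly models of little more than the coding part, there was no match. The 25 were all tested in SK-N-AS and had a median level of 3.20 CPM over the 22 libraries, while only 10 of the 40 were tested and their median level was 0.116 CPM. How the authors' own annotation drew these genes is not given in the sources used here, and a shorter model also collects fewer reads, so this difference in level cannot be told apart from the models.

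At S2D30 against untreated cells, 8 of the 25 members with a longer model were called higher and 3 lower (median log2 fold change 0.27). Of the 7 tested members whose model ends near the stem-loop, 4 were higher and 0 lower (1.01). Of the 10 tested members with no match, 1 was higher and 5 lower (-1.20); the other 30 of that set were not tested, and HIST1H2AJ and HIST1H3C passed the filter with no count in 3 or 4 of the S2D30 libraries. In GIMEN the same 3 sets gave 13 higher and 2 lower of 20 (0.84), 3 higher and 0 lower of 5 (0.59), and 1 higher and 2 lower of 5 (-0.72). Over all genes tested, 33.8% were called higher and 36.5% lower in S2D30, and 35.5% and 36% in GIMEN D30. Just inside and outside the limit of 100 bases, HIST1H4B's longest stretch past the match was 86 bases and that of HIST1H2BC was 116 bases.

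Many H2A and H2B genes lie head to head and share 1 promoter region, which allows a comparison of neighbours that start from the same stretch of DNA. In the RefSeq promoter table of build GRCh38.p14, 65 windows of the members (for 61 of the 75) were found. By the gene starts of GENCODE release 29, 14 divergent pairs had starts within 500 bases of each other. They include HIST1H3J, an H3 gene, with HIST1H2BO, and the listed pseudogenes HIST2H2BC and HIST2H2BD with H2A genes. CCAAT, the box bound by the factor NF-Y, was found on either strand in 84.6% of the 65 windows against 32.01% of all 35116 windows of the same length. TATAAA was found in 66.2% against 10.72%, and ATTTGCAT, the octamer bound by the factor OCT1, in 41.5% against 1.63%. The octamer was in 11 of 14 H2A and 15 of 20 H2B windows and in 1 of 12 H3 windows, and CCAAT in 3 of 13 H4 windows. That H3 window, of HIST1H3D, is the same stretch of DNA as the HIST1H2AD window. Windows of head-to-head neighbours overlap, so a single motif can be counted for both genes. On opposite strands TATAAA can overlap itself, as in TTTATAAA.

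The stretches between the RefSeq starts of 3 pairs are shown because their members' levels are compared next. Each is written on the plus strand, with the first gene starting leftwards from its left end and the second rightwards from its right end, and with these 3 motifs in capitals on either strand.
HIST2H2BE and HIST2H2AC, chr1:149886683-149886917: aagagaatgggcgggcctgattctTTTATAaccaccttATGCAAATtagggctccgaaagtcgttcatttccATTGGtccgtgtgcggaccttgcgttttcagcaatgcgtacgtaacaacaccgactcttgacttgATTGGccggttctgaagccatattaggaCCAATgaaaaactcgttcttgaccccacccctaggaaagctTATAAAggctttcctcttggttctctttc
HIST1H2BC and HIST1H2AC, chr6:26123927-26124171: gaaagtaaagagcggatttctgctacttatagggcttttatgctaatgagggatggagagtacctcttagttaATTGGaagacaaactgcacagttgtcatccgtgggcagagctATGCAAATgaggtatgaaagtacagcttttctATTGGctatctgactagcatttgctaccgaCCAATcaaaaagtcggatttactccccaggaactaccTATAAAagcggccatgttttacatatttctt
HIST3H2A and HIST3H2BB, chr1:228457874-228458102: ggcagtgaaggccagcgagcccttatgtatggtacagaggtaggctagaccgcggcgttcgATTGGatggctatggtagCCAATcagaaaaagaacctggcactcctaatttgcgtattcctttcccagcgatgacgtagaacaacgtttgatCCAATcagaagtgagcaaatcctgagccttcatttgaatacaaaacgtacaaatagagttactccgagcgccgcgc
Each stretch holds CCAAT 3 times. The octamer and TATAAA were found in the first 2 stretches and not in the stretch of the HIST3 pair.

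Of the 14 pairs, 9 had both genes tested in SK-N-AS. At S2D30 against untreated cells 1 of the 9 pairs was called in opposite directions, HIST2H2BE and HIST2H2AC, with log2 fold changes of 1.56 and -1.98. In GIMEN D30 the same pair moved apart again, by 1.90 (SE 0.11, edgeR adjusted p = 3.68e-08) and -2.38 (SE 0.41, edgeR adjusted p = 0.000307), and 2 of 6 tested pairs were called in opposite directions there. The other of these, HIST2H2BC and HIST2H2AA4, rests on a copy whose counts could be split arbitrarily and whose call was lost without any 1 untreated GIMEN library or D30 replicate 1 (adjusted p 0.0721 to 0.28). HIST2H2BE stood at 35.8, 31.4 and 28.3 CPM in the GIMEN D30 libraries against 8.02, 8.24 and 9.20 CPM in untreated ones, and HIST2H2AC at 0.414, 0.444 and 0.128 against 1.46, 2.02 and 1.78 CPM. Neither gene's groups overlapped.

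In the HIST1H2BC and HIST1H2AC pair, HIST1H2AC was called higher in S2D30 and HIST1H2BC was not. HIST1H2BC stood at 3.38, 2.56, 3.26 and 2.37 CPM in untreated cells, 0.84, 1.11, 0.968 and 0.533 CPM in S1D4, 0.185, 0.0544, 0.187 and 0.801 CPM in S2D4 and 1.47, 1.30, 1.37 and 2.05 CPM in S2D30. Its fall in S1D4 was 1.73 on the log2 scale (SE 0.42, edgeR adjusted p = 0.00341), where HIST1H2AC had a log2 fold change of -0.07. At S2D30 its log2 fold change was -0.88 (SE 0.40, edgeR adjusted p = 0.0588), where HIST1H2AC rose by 1.85. HIST1H2BC was called lower at S2D30 by DESeq2 (-0.85, adjusted p = 0.0439) and in a model of these 2 groups alone (edgeR adjusted p = 0.00523), and with either of these this pair too was called in opposite directions. In GIMEN D30 the log2 fold changes were -0.94 for HIST1H2BC (edgeR adjusted p = 0.109) and 1.09 for HIST1H2AC (edgeR adjusted p = 2.06e-06). The HIST3 pair rose together: HIST3H2BB went from 1.64, 1.65, 1.12 and 0.78 CPM in untreated cells to 6.38, 6.29, 5.89 and 5.00 CPM in S2D30 (log2 fold change 2.20, SE 0.25, edgeR adjusted p = 6.51e-07).

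**Figure D4:**
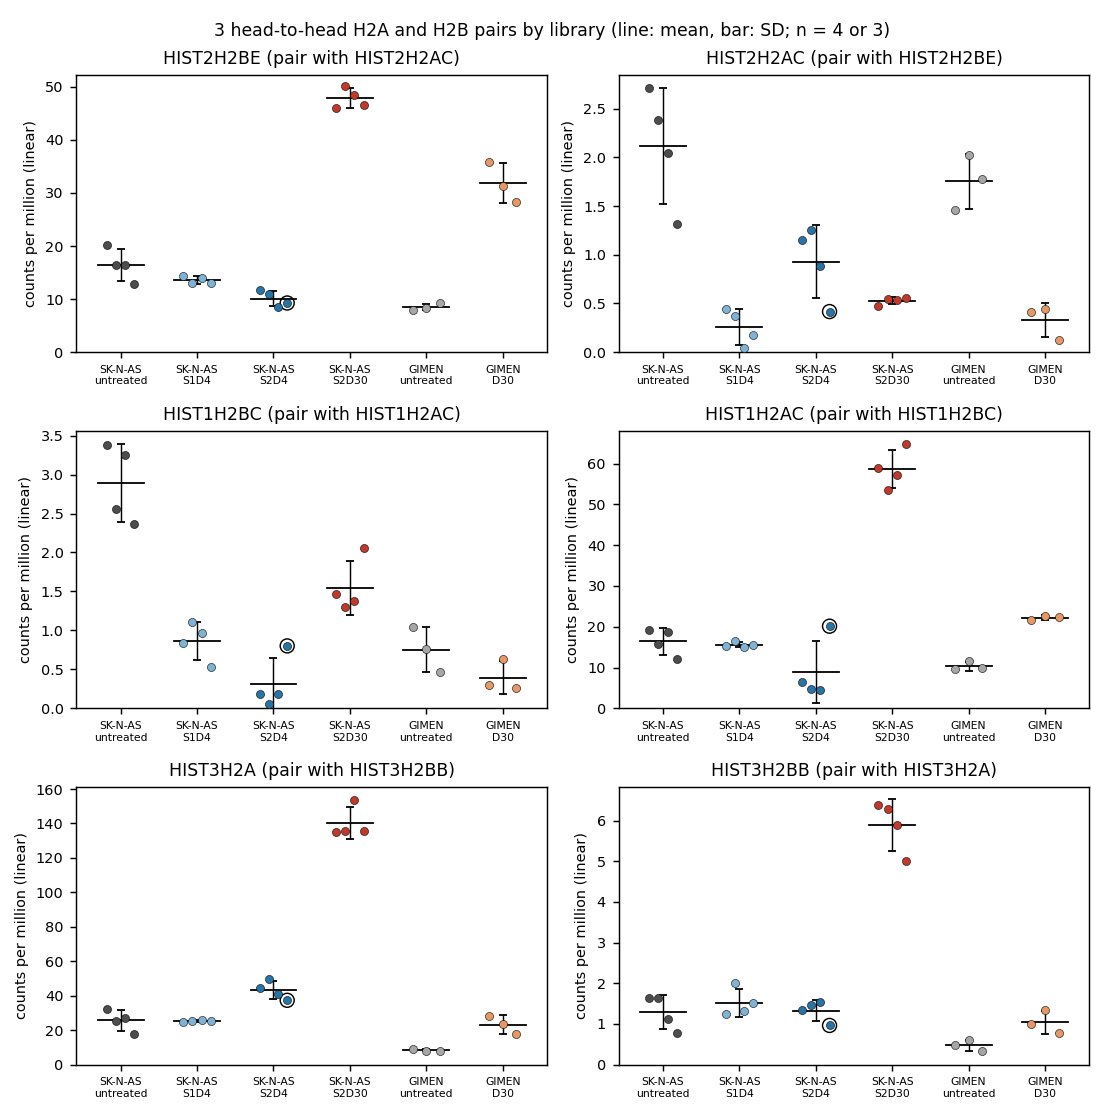
CPM of the genes of 3 head-to-head pairs in each library (linear axes from 0; points are libraries, lines group means, bars SD; n = 4 per SK-N-AS group and 3 per GIMEN group; ring, S2D4 replicate 4). In the top row HIST2H2BE is highest in the S2D30 and GIMEN D30 libraries while its neighbour HIST2H2AC is highest in the untreated ones, and in the bottom row both HIST3 genes are highest in S2D30.

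In GIMEN, 17 of the 30 tested members were called higher at 30 days and 4 lower, with a median log2 fold change of 0.70, where 71.4% of all 13517 genes tested were called, 35.5% higher and 36% lower. Where a log2 change of 1 or more was also required, 11 were higher. DESeq2 called 14 higher and 8 lower of 50. Leaving aside near-identical copies, HIST1H3E rose most by fold, from 1.77, 1.42 and 2.13 CPM to 7.81, 9.45 and 12.0 CPM (log2 fold change 2.46, SE 0.23, edgeR adjusted p = 1.89e-06). The HIST2H4A and HIST2H4B sum rose from 4.16, 4.60 and 4.03 CPM to 15.6, 17.2 and 16.4 CPM (1.93, SE 0.12, edgeR adjusted p = 8.68e-08). HIST3H2A rose from 8.90, 7.79 and 8.05 CPM to 28.4, 23.6 and 17.7 CPM (1.49, SE 0.16, edgeR adjusted p = 5.55e-06). None of these groups overlapped.

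HIST1H1C did not move with them in GIMEN, at 8.74, 7.54 and 7.42 CPM untreated and 6.09, 7.48 and 7.39 CPM at D30 (log2 fold change -0.18, SE 0.15, edgeR adjusted p = 0.294). HIST1H2BK and HIST1H4I, which were lower at S2D30 in SK-N-AS, were higher at D30 in GIMEN. HIST1H2BK went from 2.13, 2.48 and 2.47 CPM to 4.85, 5.52 and 4.63 CPM (log2 fold change 1.08, SE 0.20, edgeR adjusted p = 0.000432). HIST1H4I went from 1.98, 2.43 and 2.01 CPM to 4.02, 3.93 and 4.05 CPM (0.90, SE 0.21, edgeR adjusted p = 0.00233).

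The difference between the 30-day changes of the lines was tested as an interaction over 14 libraries. Of 43 members, 5 were called higher and 6 lower in SK-N-AS relative to GIMEN, against 24.5% and 25.2% of all 16246 genes (49.7% in either direction); 3 were called higher without untreated SK-N-AS replicate 3, S2D30 replicate 1 or 4, untreated GIMEN replicate 1 or GIMEN D30 replicate 3. HIST1H2BK had the largest called difference among them at -2.58 (SE 0.35, edgeR adjusted p = 1.17e-05), and HIST1H4I followed with -2.24 (SE 0.33, edgeR adjusted p = 3.04e-05). HIST3H2A rose more in SK-N-AS, by a difference of 0.96 (SE 0.24, edgeR adjusted p = 0.00306). Of the 30 members tested in both lines, 10 were called higher at 30 days in both, among them HIST3H2A, HIST2H2BE, HIST1H2AC, HIST1H2BD and HIST1H3E, where 20.1% of the 13088 genes tested in both were. Another 2 members were lower in both, against 22.2% of genes, and 2 were lower in SK-N-AS and higher in GIMEN, against 5.87%.

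**Figure D5:**
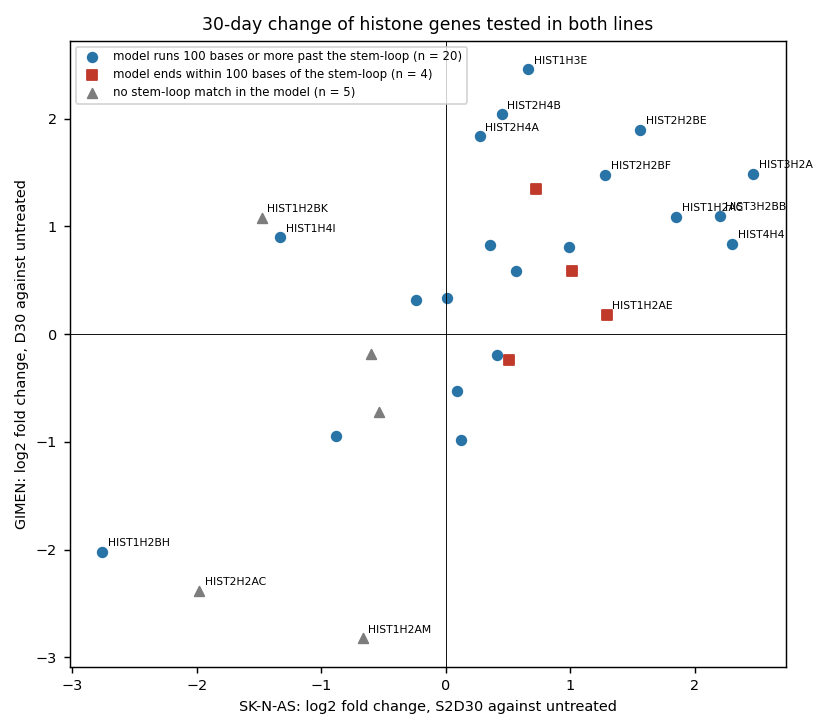
Fitted log2 fold change at 30 days in SK-N-AS (x axis) and GIMEN (y axis) for 29 of the 30 members tested in both lines (HIST2H2AA3 is left out), marked by what the annotated transcript model holds. Of these points 16 are positive in both lines and 6 negative in both, and HIST1H2BK and HIST1H4I lie at the upper left.

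Before treatment the levels already differed between the lines. The untreated lines also grew in different media, DMEM and RPMI, so line and medium cannot be told apart. In untreated SK-N-AS against untreated GIMEN, 33 of 43 members were called higher and 1 lower (median log2 fold change 1.46), where 73.9% of all genes were called, 38.6% higher and 35.3% lower. HIST1H2BK differed most among the named members, by a log2 change of 5.00 (SE 0.26, edgeR adjusted p = 2.25e-11), followed by HIST1H4I (3.64, SE 0.25, edgeR adjusted p = 6e-10) and HIST1H1C (3.24, SE 0.20, edgeR adjusted p = 1.56e-10) among members without a near-identical copy. The single member called lower was HIST4H4 (-1.57, SE 0.45, edgeR adjusted p = 0.00443; -2.20 without untreated SK-N-AS replicate 4). The S-phase sum was lower in each untreated SK-N-AS library, with 1943 to 2578 CPM against 2755 to 2868 CPM in GIMEN.

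The genes that make, carry and process histone mRNA and protein were listed apart from the members. Against untreated cells, 16 of the 16 S-phase genes were called lower in S1D4, in S2D30 and in GIMEN D30, and 15 in S2D4. In S2D4 against S1D4, 2 were higher, 5 lower and 9 not called. Their summed level was 1943 to 2578 CPM in untreated SK-N-AS, 916 to 1212 CPM in S1D4 and 440 to 447 CPM in S2D30, and in GIMEN 2755 to 2868 and 320 to 338 CPM. E2F1, a transcription factor of the S-phase programme, fell by 4.62 on the log2 scale in S2D30 (SE 0.27, edgeR adjusted p = 1.67e-10), and PCNA, the replication clamp, by 2.25 (SE 0.18, edgeR adjusted p = 6.87e-09). Over the same 2 groups the summed histone members went from 329 to 555 CPM to 634 to 651 CPM, and in GIMEN from 97.6 to 104 CPM to 180 to 207 CPM. In both lines the 30-day libraries thus held less S-phase RNA and more summed histone RNA than the untreated ones. This sum weights the abundant members. In SK-N-AS only the H2A sum lay wholly above its untreated range, at 313 to 342 against 68.2 to 120 CPM. The H1, H2B, H3 and H4 sums overlapped their untreated ranges, and the H1 mean was lower, at 49.8 against 77.1 CPM. In GIMEN the sum of every class but H1 was higher. Whether the S-phase and histone levels were linked was not tested.

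Of 17 chaperone and assembly genes, 15 were called lower and 1 higher in S2D30, and 12 lower and 2 higher in GIMEN D30. ASF1B, a chaperone of H3 and H4 tied to replication, went from 49.1 ± 8.32 to 1.68 ± 0.26 CPM (SD, n = 4 and 4) in SK-N-AS, a fall of 4.84 (SE 0.36, edgeR adjusted p = 4.1e-09). In GIMEN it went from 61.6 ± 1.66 to 1.36 ± 0.283 CPM (SD, n = 3 and 3), a fall of 5.49 (SE 0.12, edgeR adjusted p = 1.25e-11). NASP, a chaperone of H1, H3 and H4, fell by 1.89 (SE 0.12, edgeR adjusted p = 3.38e-10) in S2D30.

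The 16 genes of histone mRNA transcription and processing showed no such common direction, with 3 called higher and 6 lower in S2D30 and 1 higher and 8 lower in GIMEN D30. SLBP stood at 86.7 ± 15.3 CPM in untreated SK-N-AS and 57.6 ± 7.15 CPM in S1D4 (SD, n = 4 and 4), a fall of 0.58 (SE 0.13, edgeR adjusted p = 0.00185). At S2D30 its fall of 0.30 (SE 0.13, edgeR adjusted p = 0.0453) was lost without untreated replicate 1, 2 or 3 or S2D30 replicate 1 or 4 (adjusted p 0.0509 to 0.215) and by DESeq2 (adjusted p = 0.0845). NPAT rose by a log2 change of 0.68 in S2D30 (SE 0.12, edgeR adjusted p = 0.000115), from 11.4 ± 1.97 to 18.2 ± 1.86 CPM (SD, n = 4 and 4).

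Most histone variants listed as replication-independent are made outside S phase as well as in it, from polyadenylated mRNA, and can replace the canonical proteins. Of 11 listed variant genes, 3 were called higher and 7 lower in S2D30, and 1 higher and 8 lower in GIMEN D30. H1F0, the linker histone of non-dividing cells, rose from 140 ± 11.3 to 456 ± 28.2 CPM (SD, n = 4 and 4; log2 fold change 1.72, SE 0.10, edgeR adjusted p = 1.45e-10), H2AFJ from 3.94 ± 1.1 to 13.7 ± 4.07 CPM (1.82, SE 0.23, edgeR adjusted p = 2.64e-06) and H3F3B, an H3.3 gene, from 633 ± 61.3 to 1365 ± 168 CPM (1.13, SE 0.12, edgeR adjusted p = 2.13e-07). In GIMEN H1F0 did not pass the test (0.15, SE 0.09, edgeR adjusted p = 0.179), and H3F3B fell by 0.27 (SE 0.07, edgeR adjusted p = 0.00426).

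The variants that fell included those tied to dividing cells. CENPA, the H3 variant of centromeres, went from 19.5 ± 2.54 to 0.415 ± 0.121 CPM in S2D30 (SD, n = 4 and 4) and fell by 5.52 (SE 0.34, edgeR adjusted p = 3.21e-10). H2AFX fell by 2.70 (SE 0.25, edgeR adjusted p = 4.61e-08) and H2AFZ by 1.41 (SE 0.16, edgeR adjusted p = 8.32e-07). In bulk RNA, fewer cells with a transcript and less of it per cell cannot be told apart.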

How the data were processed

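RNA was extracted as total RNA with DNase, and libraries were made by a company and sequenced as paired reads of 150 bases, per the labels' protocols. The authors deposited whole-number read counts per gene for all 22 libraries; the aligner, the counter, strandedness, genome build, annotation and any poly(A) selection are not given in the sources used here. Shared or overlapping reads may therefore be split between copies.

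The members and gene lists were chosen with earlier results of these data known. Groups came from the labels. Genes passing edgeR's filterByExpr (minimum count 10, minimum total 15) were fitted with edgeR 4.0.16 (R 4.3.3, limma 3.58.1) quasi-likelihood models after TMM scaling, with 1 model for 16 SK-N-AS libraries, 1 for 6 GIMEN libraries and 1 over 14 untreated and 30-day libraries. P-values are two-sided and adjusted by Benjamini-Hochberg over all genes tested, with 0.05 as the threshold. The method was tested on simulated data. Near-identical copies were also summed and refitted, an alternative chosen after seeing the data.

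Members were named by rule: in each comparison the 3 largest called rises and falls among members averaging at least 1 CPM, the 2 most abundant members of each class, the polyadenylated and testis lists, and 12 other genes (SLBP, NPAT, E2F1, PCNA, ASF1B, NASP, H1F0, H2AFJ, H2AFX, H2AFZ, H3F3B and CENPA). Alternatives were DESeq2 1.42.0, other scalings, no filter, a fold minimum, a replicate block, models of the compared groups alone and leaving out each library. Sequences came from GENCODE release 29 and RefSeq; figures used matplotlib 3.10.9.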

Additional observations from a re-analysis of the deposited data

Results flagged for a closer look

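In groups of 4 libraries, 88 sets of values were checked for a highest or lowest library far from the other 3, a rule that chance meets in about 1 of 20 sets. It was met 17 times, 14 of them by replicate 4 of S2D4, so these are not independent. In that library the summed levels were 32.92 CPM for H1, 76.7 CPM for H2B, 26.7 CPM for H3, 49.71 CPM for H4 and 286.4 CPM for all members. Its single members far above the other 3 libraries were HIST1H1C at 31.35 CPM, HIST1H2AC at 20.13 CPM, HIST1H2BK at 31.95 CPM, HIST1H2BD at 8.109 CPM and HIST1H3E at 9.23 CPM. HIST2H3A at 6.666 CPM, HIST1H4I at 10.74 CPM, the HIST2H4A and HIST2H4B sum at 24.9 CPM and HIST4H4 at 1.731 CPM stood apart there too. The other 3 cases were HIST3H2A in S2D30 replicate 3 at 153.9 CPM, HIST1H3E in untreated SK-N-AS replicate 2 at 11.26 CPM, the lowest of its group, and HIST2H3A in untreated SK-N-AS replicate 4 at 8.015 CPM.

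The 30-day change differed between the lines for 11 of 43 members by the interaction test of edgeR, where 49.7% of all genes tested were called. The difference, SK-N-AS minus GIMEN on the log2 scale, was positive for HIST1H2AC (0.74, adjusted p = 0.00393), HIST1H2AI (2.25, adjusted p = 0.00511), HIST1H2AM (2.16, adjusted p = 0.0498), HIST2H2BC (1.09, adjusted p = 0.0334) and HIST3H2A (0.96, adjusted p = 0.00306). It was negative for HIST1H2BD (-0.64, adjusted p = 0.027), HIST1H2BK (-2.58, adjusted p = 1.17e-05), HIST1H3E (-1.81, adjusted p = 1.63e-05), HIST1H4I (-2.24, adjusted p = 3.04e-05), HIST2H4A (-1.59, adjusted p = 0.000664) and HIST2H4B (-1.61, adjusted p = 0.0128). The calls of HIST1H2BD, HIST1H2AM, HIST2H2BC and HIST2H4B were each lost without at least 1 single library. Drug doses, serum and regimen also differed between the lines, and these cannot be told apart from the lines. HIST1H2AM and HIST1H2AI share reads with neighbours or copies, with 80.7% and 51.7% of their 150-base words found in another member.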

How the results depend on the processing

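No alternative turned the sign of a named member's called change, but the balance of calls in S2D30 turned from 13 higher and 8 lower to more falls than rises with no filter and with DESeq2. Shares over all genes were not computed for the fits with no filter or with DESeq2. Requiring a log2 change of at least 1 left 1 member higher in S2D4 against untreated cells, 1 higher in S2D4 against S1D4, 11 higher in GIMEN and 3 higher in the difference between lines. With no filter, 13 members were higher and 18 lower in S2D30, and 15 higher and 10 lower in GIMEN. DESeq2 called 14 higher and 16 lower in S2D30, 1 lower in S2D30 against S2D4 and 8 lower in GIMEN. With the groups alone, 7 were lower in S2D4 against S1D4. The labels give no shared origin for equal replicate numbers, and not every pair deviated together: for untreated and S1D4 libraries the correlations were 0.307, 0.281, 0.033 and 0.313, and over all 24 pairs in SK-N-AS they ran from -0.107 to 0.313 and over 3 in GIMEN from -0.037 to 0.002. The numbers were therefore not taken as pairs. With a replicate block, 2 members were higher in S1D4 and 1 lower in S2D30 against S2D4. With upper-quartile scaling the mean sums were 66.53 CPM for H2A in S1D4, 33.95 and 30.86 CPM for H2A and H2B in untreated GIMEN, 89.38 CPM for H4 in S2D30, and 665.4 and 95.57 CPM for all members in S2D30 and untreated GIMEN. With DESeq2's size factors they were 66.93 CPM for H2A in S1D4 and 651 CPM for all members in S2D30. Each moved by more than 1 SD; the cause was not tested.

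Leaving out 1 library at a time gave 0 to 2 higher and 18 to 24 lower members in S1D4, 1 to 2 higher and 27 to 34 lower in S2D4, and 11 to 13 higher and 8 to 10 lower in S2D30. It gave 2 to 4 higher and 9 to 28 lower in S2D4 against S1D4, and 26 to 35 higher and 0 to 1 lower in S2D30 against S2D4. In GIMEN it gave 13 to 16 higher and 4 to 6 lower, in the difference between lines 3 to 7 higher and 4 to 9 lower, and between untreated lines 29 to 34 higher and 1 lower. Of 122 called changes of named members, 96 were kept without each library and 26 were lost without at least 1. Depth limits the 46 members averaging under 1 CPM, for which few counts lie behind each value.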
